A study of Mus musculus with 6 samples.

Results

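The 10 genes described here are general surface markers of macrophages and other myeloid cells, measured in interscapular brown adipose tissue (iBAT). They were chosen by name and role, with earlier results of these data known, and are *Csf1r*, *Adgre1*, *Itgam*, *Mrc1*, *Cd163*, *Cd14*, *Tlr2*, *Tlr4*, *Ptprc*, and *Tyrobp*. They are 10 of the 20630 genes that could be named on the array, and all 10 passed the filter on dim probes, with 15 probes among them. RNA came from iBAT of 3 control and 3 *ob/ob* mice, all male, of background strain C57BL/6, and 16 weeks old. *ob/ob* mice carry a mutated leptin gene and become obese, and the labels give the controls no genotype other than control. Each sample was hybridized with a single dye to 1 Agilent whole-genome mouse array. Pooling of mice within a sample is not mentioned in the sources, and the p values measure the spread between these samples.

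Macrophages depend on the receptor encoded by *Csf1r* for survival, and sense microbial products, take up debris, and adhere to matrix through other surface proteins. In obese adipose tissue, macrophages are known to accumulate and to change the proteins they display. The 10 genes fall by role into a growth factor receptor (*Csf1r*), an adhesion receptor and an integrin used to identify macrophages (*Adgre1*, *Itgam*), scavenger and endocytic receptors (*Mrc1*, *Cd163*), receptors for bacterial lipids (*Cd14*, *Tlr2*, *Tlr4*), and a leukocyte phosphatase and a signaling adaptor (*Ptprc*, *Tyrobp*). In whole tissue, fewer cells of a type and less RNA per cell cannot be told apart.

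The scanner's median signal ran from 46.4 to 107.8 in the controls and from 26.4 to 81.3 in the *ob/ob* samples, and 83.2% to 90.0% of probes were detected on each array. Expression profiles did not follow the labels. Over all probes tested, control 3 correlated best with *ob/ob* 2 (Spearman coefficient 0.944, compared with 0.642 and 0.730 with the other controls), and *ob/ob* 3 correlated best with control 1 (0.858, compared with 0.573 and 0.488 with *ob/ob* 1 and 2). The log2 signal of *Ucp1*, the uncoupling protein that defines brown fat, was 13.05, 11.72, and 9.48 in control 1, 2, and 3, against 8.93, 9.12, and 10.03 for *ob/ob* 1 to 3. *Lep*, the mutated leptin gene, had log2 signals of 5.74, 4.57, and 5.30 on the control arrays, against 6.68, 5.83, and 9.33 on the *ob/ob* arrays, which does not check the mutation itself. The groups were kept as labeled, and whether the labels hold for control 3 and *ob/ob* 3 was not tested. Every group mean and change below rests on those labels, so the brightest probe of each marker is given for every array.

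None of the 10 markers differed between *ob/ob* and control iBAT past the threshold. The adjusted p was 1.0 for each in limma, a linear model that draws each probe's variance toward a value common to all probes. Of 19011 genes tested, 0 passed an adjusted p under 0.05 (0%). At an unadjusted p under 0.05, limma called 0 of the 10 markers, compared with 3.73% of all genes tested. The estimated log2 fold changes, *ob/ob* minus control, ran from -1.43 for *Itgam* to 1.12 for *Csf1r*, and 7 of 10 were above 0, compared with 42.8% of all genes. Their median was 0.29, compared with -0.086 for all genes. Without *ob/ob* 3, 5 of 10 were above 0 and the median was 0.037, compared with -0.0029 for all genes. Standard errors with all arrays were large, with a median of 0.55 log2 units over the markers and 0.53 over all genes. *Cd14* was the single marker whose *ob/ob* arrays all lay above the controls, a pattern seen in 3.78% of all genes. No marker lay below the controls on every *ob/ob* array, as 4.22% of all genes did.

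The order of the arrays differed between the markers. In 6 of 10, namely *Mrc1*, *Cd14*, *Tlr2*, *Tlr4*, *Ptprc*, and *Tyrobp*, the highest signal lay on *ob/ob* 3, compared with 30.2% of all genes. In 4 of these, *Mrc1*, *Tlr2*, *Tlr4*, and *Tyrobp*, *ob/ob* 3 exceeded every other array by at least 1 log2 unit, compared with 11.3% of all genes. *Csf1r* and *Cd163* showed another order, with their 3 highest signals on control 3, *ob/ob* 1, and *ob/ob* 2, which held for 31.7% of all genes. *Adgre1*, *Itgam*, and *Cd163* were lowest on *ob/ob* 3. Counts of this kind, here and below, are given for the brightest probe of each gene and for quantile-normalized signals only. Another scaling can change which array is highest. The scanner signals of *ob/ob* 3 had an unlike spread, with a median of 26.4 and a 75th percentile of 135.6. These were 46.4 and 96.6 on control 3 and 60.6 and 137.4 on *ob/ob* 1.

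**Figure D1:**
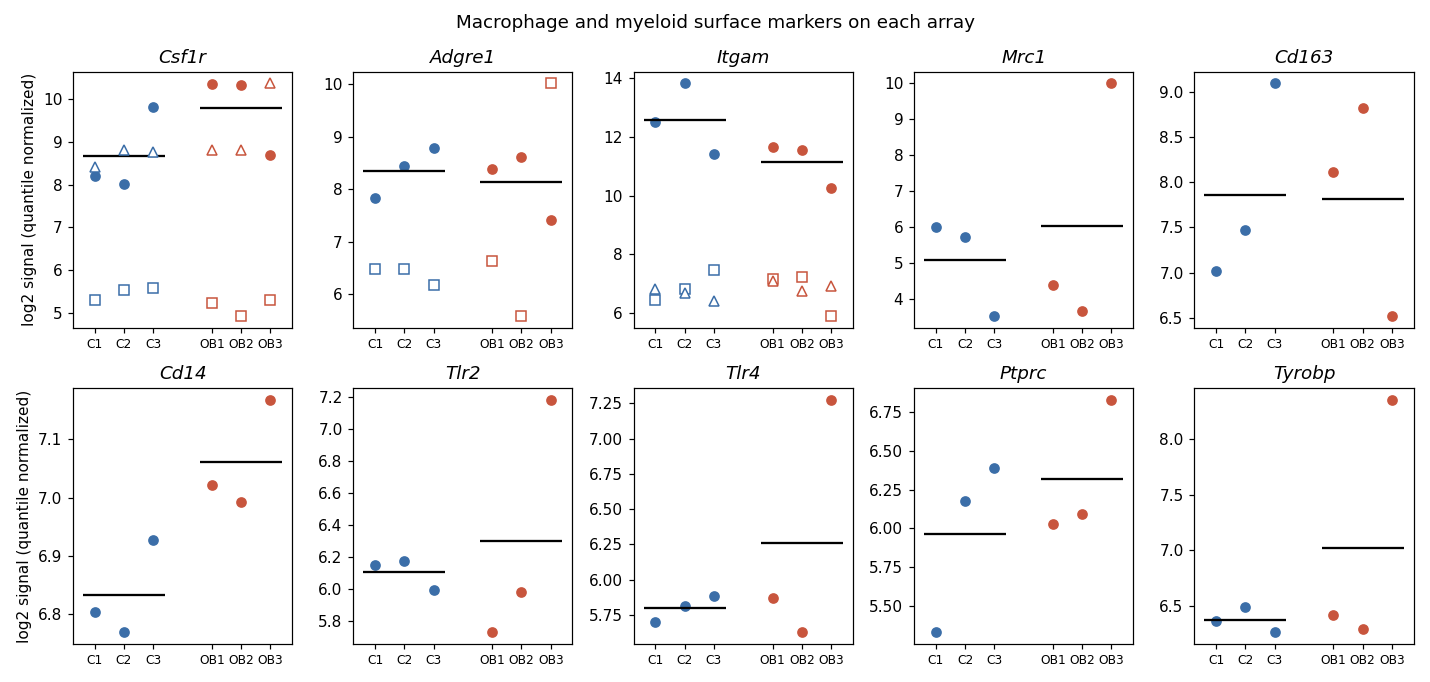
Log2 signal after quantile normalization (y axis, a different range in each panel) of the 10 markers on control 1 to 3 (blue, C1 to C3) and *ob/ob* 1 to 3 (red, OB1 to OB3). Filled circles are the brightest probe of a gene, open squares and triangles its further probes, and black lines the group means of the brightest probe; *Tyrobp*, *Tlr4*, *Tlr2*, and *Mrc1* stand at least 1 log2 unit higher on OB3 than elsewhere.

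*Csf1r*, the receptor for the ligands encoded by *Csf1* and *Il34*, had the largest positive estimate of the 10. Its brightest probe gave log2 signals of 8.21, 8.01, and 9.82 in control 1, 2, and 3, against 10.35, 10.34, and 8.70 for *ob/ob* 1 to 3. *ob/ob* 1 and 2 lay above all controls, while *ob/ob* 3 lay below control 3, so the groups overlapped. The means were 8.68 ± 0.99 and 9.80 ± 0.95 (SD, n = 3 each), a log2 fold change of 1.12 (SE 0.69, 95% confidence interval -0.55 to 2.79), with an exact permutation p of 0.20. Without *ob/ob* 3 the estimate was 1.66, and without control 3 it was 1.69, at unadjusted limma p values of 0.0403 and 0.0393 and with 10.3% and 9.53% of all genes then called at that threshold.

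The other 2 probes of *Csf1r* gave other orders. A dim probe read 5.30, 5.54, and 5.57 on the control arrays, against 5.22, 4.92, and 5.29 on the *ob/ob* arrays, for a log2 fold change of -0.32 (SE 0.31). Its *ob/ob* arrays all lay below the controls, though control 1 and *ob/ob* 3 were nearly equal. A further probe read 8.41, 8.81, and 8.76 on the control arrays, against 8.80, 8.81, and 10.37 on the *ob/ob* arrays (log2 fold change 0.67, SE 0.51), with *ob/ob* 3 the highest array by 1.56. The probes thus disagreed on whether *ob/ob* 3 was high or intermediate for *Csf1r*.

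*Adgre1* encodes an adhesion G protein-coupled receptor widely used to identify mouse macrophages. Its brightest probe read 7.84, 8.45, and 8.78 on the control arrays, against 8.39, 8.61, and 7.42 on the *ob/ob* arrays. The groups overlapped, with *ob/ob* 3 lowest, and the log2 fold change was -0.21 (SE 0.46). A further probe read 6.48, 6.48, and 6.17 on the control arrays, against 6.64, 5.59, and 10.01 on the *ob/ob* arrays. Here *ob/ob* 3 was the highest array, by 3.37 log2 units, and the log2 fold change was 1.03 (SE 1.1), turning to -0.27 without *ob/ob* 3. The 2 probes of the gene therefore placed *ob/ob* 3 at opposite ends.

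*Itgam*, the alpha chain of an integrin that binds complement and adhesion proteins on monocytes, macrophages, and neutrophils, had the largest negative estimate. Its brightest probe read 12.51, 13.82, and 11.43 on the control arrays, against 11.67, 11.54, and 10.25 on the *ob/ob* arrays. The lowest control, control 3, lay within the range of the *ob/ob* samples, and *ob/ob* 3 was lowest. The means were 12.59 ± 1.20 and 11.15 ± 0.79 (SD, n = 3 each), and the log2 fold change was -1.43 (SE 0.72, 95% confidence interval -3.16 to 0.30), with an unadjusted limma p of 0.0897, the lowest of the 10. It was -2.01 without control 3, where it passed an unadjusted p under 0.05 in limma together with 9.53% of all genes, -0.82 without control 2, and -0.98 without *ob/ob* 3. Within the scan that control 1, control 3, and *ob/ob* 1 shared, the single *ob/ob* array differed from the mean of the controls by -0.30. The other 2 probes were far dimmer, with control means of 6.92 and 6.65 against 12.59, and gave log2 fold changes of -0.15 (SE 0.50) and 0.28 (SE 0.31). The estimate of -1.43 thus rests on the brightest probe alone.

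*Mrc1*, the mannose receptor of tissue resident and alternatively activated macrophages, had the widest spread of the 10. It read 5.99, 5.72, and 3.54 on the control arrays, against 4.41, 3.67, and 9.98 on the *ob/ob* arrays, and was not well above background on control 3 and *ob/ob* 2. *ob/ob* 3 exceeded every other array by 3.99 log2 units, and the remaining *ob/ob* arrays lay within the range of the controls. The means were 5.08 ± 1.34 and 6.02 ± 3.45 (SD, n = 3 each). The log2 fold change of 0.94 had an SE of 1.72 and a 95% confidence interval of -3.23 to 5.11, and without *ob/ob* 3 it was -1.04.

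*Cd163*, the scavenger receptor for hemoglobin bound to haptoglobin, read 7.01, 7.48, and 9.09 on the control arrays, against 8.11, 8.81, and 6.52 on the *ob/ob* arrays. Control 3 was the highest array and *ob/ob* 3 the lowest, the reverse of *Mrc1*. The log2 fold change was -0.04 (SE 0.79, exact permutation p = 1.0), and 0.60 without *ob/ob* 3. *Mrc1* and *Cd163* thus had their extremes on the same pair of arrays, in opposite order.

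The promoters of *Mrc1* and *Itgam* are shown because these genes stood at opposite ends on *ob/ob* 3. PU.1, encoded by *Spi1*, is a transcription factor of myeloid cells that binds DNA around a GAGGAA core. The letters GAGGAA were searched on either strand in the 250 bases before each start site that RefSeq gives for GRCm38.p6. Of 32851 such windows, 23.3% held at least 1 match and 3.54% at least 2, and 5 of the 10 markers had a window. The *Mrc1* window, chr2:14229164-14229413 on the plus strand, held 3 matches, 180 to 35 bases before the start. The *Itgam* window, chr7:128062390-128062639 on the plus strand, held 2 matches, 84 and 15 bases before the start. *Ptprc* had 1 match in 1 of 2 windows, and *Tlr2* and *Cd163* had 0. In the sequences, written 5′ to 3′, capitals mark GAGGAA or its reverse complement.
Mrc1: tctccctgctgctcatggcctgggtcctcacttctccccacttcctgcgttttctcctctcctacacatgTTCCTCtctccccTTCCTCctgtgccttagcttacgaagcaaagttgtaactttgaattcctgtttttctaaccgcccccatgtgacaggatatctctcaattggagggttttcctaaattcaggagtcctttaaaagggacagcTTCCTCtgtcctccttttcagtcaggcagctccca
Itgam: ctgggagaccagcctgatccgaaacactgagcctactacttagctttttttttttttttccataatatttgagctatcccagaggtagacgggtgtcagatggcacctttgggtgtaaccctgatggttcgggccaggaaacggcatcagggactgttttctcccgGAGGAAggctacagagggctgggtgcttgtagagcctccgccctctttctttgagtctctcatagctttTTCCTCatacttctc
A match describes these letters and is not a binding site, and *Spi1* itself is described with the partners below.

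*Cd14*, the coreceptor that hands lipopolysaccharide to *Tlr4*, had the smallest spread within groups. It read 6.80, 6.77, and 6.93 on the control arrays, against 7.02, 6.99, and 7.17 on the *ob/ob* arrays. Every *ob/ob* array lay above every control, although the gap between control 3 and *ob/ob* 2 was narrow. The means were 6.83 ± 0.08 and 7.06 ± 0.09 (SD, n = 3 each), a log2 fold change of 0.23 (SE 0.29, 95% confidence interval -0.48 to 0.93). The exact permutation p was 0.10, the smallest that 3 samples against 3 allow, and the unadjusted limma p was 0.464. The estimate stayed between 0.16 and 0.27 over the 19 alternative settings tried, but with normexp background correction the groups overlapped.

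*Tlr2*, the receptor for bacterial lipoproteins, read 6.15, 6.18, and 6.00 on the control arrays, against 5.73, 5.98, and 7.18 on the *ob/ob* arrays. *ob/ob* 1 and 2 were the lowest arrays and *ob/ob* 3 the highest, so the log2 fold change of 0.19 (SE 0.46) became -0.25 without *ob/ob* 3. *Tlr4*, the signaling receptor for lipopolysaccharide, read 5.70, 5.81, and 5.88 on the control arrays, against 5.87, 5.63, and 7.28 on the *ob/ob* arrays. Apart from *ob/ob* 3, which was higher by 1.39, the arrays were close together. The log2 fold change was 0.46 (SE 0.50), and -0.05 without *ob/ob* 3.

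*Ptprc*, the phosphatase known as the leukocyte common antigen and carried by all white blood cells, read 5.33, 6.18, and 6.39 on the control arrays, against 6.03, 6.09, and 6.83 on the *ob/ob* arrays. The groups overlapped, with control 1 lowest and *ob/ob* 3 highest, and the log2 fold change was 0.35 (SE 0.44), or 0.09 without *ob/ob* 3. *Tyrobp*, the adaptor that carries the signal of TREM and related receptors in myeloid and natural killer cells, read 6.37, 6.50, and 6.27 on the control arrays, against 6.42, 6.30, and 8.35 on the *ob/ob* arrays. The other arrays spanned only 0.23 log2 units, and *ob/ob* 3 lay 1.85 above them. The log2 fold change was 0.64 (SE 0.60), and -0.02 without *ob/ob* 3.

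**Figure D2:**
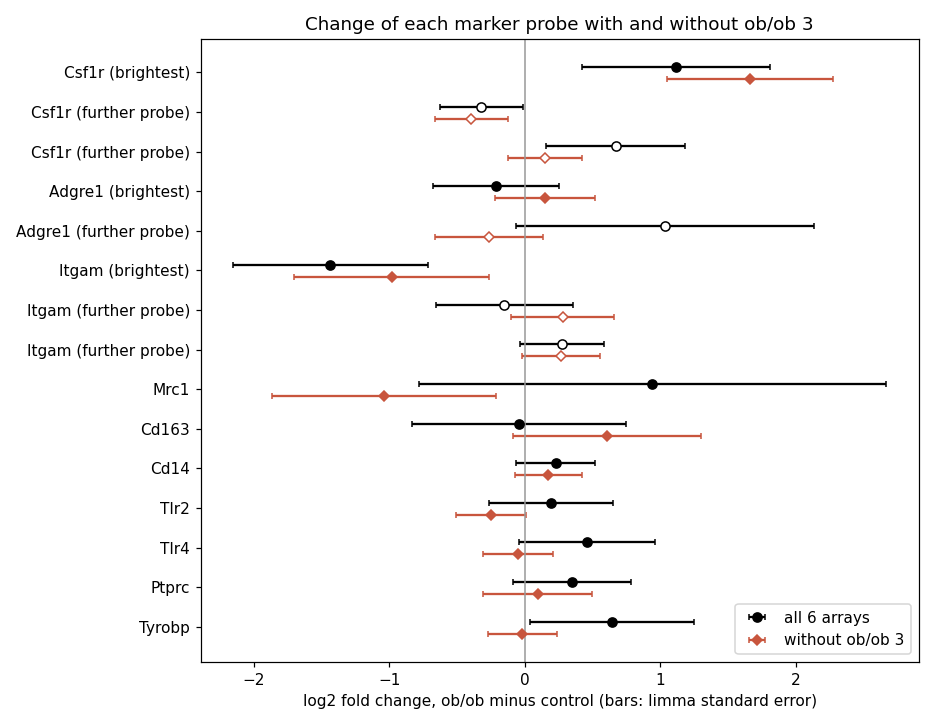
Log2 fold change, *ob/ob* minus control (x axis), of each of the 15 marker probes with all 6 arrays (black) and without *ob/ob* 3 (red). Bars are limma standard errors and open symbols are further probes of a gene; without *ob/ob* 3 the estimates of *Mrc1*, *Tlr2*, *Tlr4*, and *Tyrobp* move below 0 and that of *Csf1r* moves up to 1.66.

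To ask whether any marker moved apart from leukocyte RNA in general, the log2 signal of *Ptprc* was subtracted from that of each other marker on the same array. The change of this difference between genotypes ran from -1.78 for *Itgam* (SE 1.07) to 0.77 for *Csf1r* (SE 0.93). For *Mrc1* it was 0.59 (SE 2.03), and for *Tyrobp* 0.29. These turned to -1.13 and -0.11 without *ob/ob* 3, and that of *Csf1r* was then 1.57. All 9 differences overlapped between the groups, with exact two-sided permutation p values from 0.30 to 0.90 and 0.90 for each after Benjamini-Hochberg adjustment over the 9. The wide errors leave room for changes of either sign. *Ptprc* was read by a single probe, at log2 signals of 5.33 to 6.83, which limits it as a measure of leukocyte RNA. Each other marker was read by its brightest probe.

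The other genes of the same pathways were taken from 4 lists, of receptor partners and signal adaptors, myeloid transcription factors, other macrophage genes, and tissue resident macrophage genes. Of 62 genes, 58 were tested, and 0 had an adjusted p under 0.05 (limma). At an unadjusted p under 0.05, 5 were higher in *ob/ob* iBAT and 0 lower, or 8.62% in all, beside 3.73% of all genes. Without *ob/ob* 3, 5 were higher and 1 lower, or 10.3%, the same share as of all genes then called (10.3%). Under 75th percentile scaling 2 were called (3.45%, beside 1.43% of all genes), and with the replicate number as a block 1 (1.72%, beside 1.08%). With the scan as a block 0 were called, beside 0.54% of all genes. The median log2 fold change was 0.43, with 41 of 58 above 0, and 37 were highest on *ob/ob* 3 (63.8%, beside 30.2% of all genes). In 8 of 58 the *ob/ob* arrays all lay above the controls (13.8%, beside 3.78% of all genes), and in 0 all below (4.22% of all genes). Without *ob/ob* 3 the medians of the transcription factors and the tissue resident genes turned from 0.19 to -0.40 and from 0.14 to -0.07, and those of the partners and the other macrophage genes went from 0.26 to 0.11 and from 0.56 to 0.28.

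Of the partners of *Tyrobp*, *Trem2*, a lipid-sensing receptor of macrophages in obese fat, read 4.88, 4.97, and 5.37 on the control arrays, against 7.18, 6.26, and 8.53 on the *ob/ob* arrays. All *ob/ob* arrays lay above all controls. The log2 fold change was 2.25 (SE 0.61, exact permutation p = 0.10, unadjusted limma p = 0.00919, adjusted p = 1.0), and 1.65 without *ob/ob* 3. *Trem1*, which amplifies inflammatory signals through the same adaptor, had a log2 fold change of 1.36 (SE 0.51, exact permutation p = 0.20, unadjusted limma p = 0.0349, adjusted p = 1.0), and 1.74 without *ob/ob* 3. Its groups overlapped, since control 3 lay above *ob/ob* 3, and *Clec5a*, another receptor that uses *Tyrobp*, had an estimate of -0.59, or 0.34 without *ob/ob* 3. *Fcer1g*, an adaptor related to *Tyrobp*, gave -0.12 (SE 0.55), or 0.30 without *ob/ob* 3.

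The direct partners of the other receptors overlapped between the groups. *Csf1*, the ligand of *Csf1r*, read 8.05, 7.49, and 3.97 on the control arrays, against 5.02, 4.64, and 12.11 on the *ob/ob* arrays, and its log2 fold change of 0.75 (SE 2.20) became -1.67 without *ob/ob* 3. This order of arrays was that of *Mrc1*, not of *Csf1r*. *Il34*, the other ligand, gave 0.01 (SE 0.32). *Itgb2*, the beta chain that pairs with *Itgam*, gave 0.21 (SE 0.31), against -1.43 for the brightest probe of *Itgam* and -0.15 and 0.28 for its further probes. *Ly96*, which binds lipopolysaccharide with *Tlr4*, gave 0.21 (SE 0.52), or -0.30 without *ob/ob* 3. Downstream of the Toll-like receptors, *Traf6*, a ubiquitin ligase, was higher on all *ob/ob* arrays, by 0.98 (SE 0.39, exact permutation p = 0.10, unadjusted limma p = 0.0452, adjusted p = 1.0). Without *ob/ob* 3 it gave 0.74 and no longer passed an unadjusted p under 0.05. *Tirap*, a sorting adaptor, gave -0.01, or 0.54 without *ob/ob* 3. Haptoglobin (*Hp*), whose complex with hemoglobin *Cd163* takes up, gave -0.01, and *Hmox1*, which breaks down heme, gave 0.92, or -1.20 and 0.60 without *ob/ob* 3.

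Of the transcription factors, 0 of 9 passed an unadjusted p under 0.05 in limma. *Spi1* gave a log2 fold change of 0.19 (SE 0.31). It had its highest signals on control 3, *ob/ob* 1, and *ob/ob* 2, as the brightest *Csf1r* probe and *Cd163* did. *Cebpb*, *Irf5*, and *Maf* gave 0.07, -0.09, and 0.45, which became -1.18, 0.26, and -0.79 without *ob/ob* 3. *Nr1h3*, the oxysterol receptor, gave -1.55 (SE 0.93), or -2.20 without *ob/ob* 3.

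Among the other macrophage genes, 16 of 20 estimates were above 0. *C1qa*, a chain of the first complement component, was higher on all *ob/ob* arrays by 0.90 (SE 0.37, exact permutation p = 0.10, unadjusted limma p = 0.0467, adjusted p = 1.0). It gave 0.66 without *ob/ob* 3 and no longer passed an unadjusted p under 0.05. *C1qb* and *C1qc*, further chains of the same component, overlapped between the groups and gave 0.19 (SE 0.48) and 0.73 (SE 1.42). *C1qc* read 9.69 on *ob/ob* 3 and 4.34 to 6.53 elsewhere. *Cx3cr1*, the fractalkine receptor, was higher on all *ob/ob* arrays, as *C1qa* was, by 1.05 (SE 0.45, exact permutation p = 0.10, unadjusted limma p = 0.0546, adjusted p = 1.0), and by 1.19 without *ob/ob* 3. Its signals on control 3 and *ob/ob* 3 were nearly equal, at 6.65 and 6.67. *Ctss*, a lysosomal protease, read 6.15 to 7.55 on the control arrays, against 8.26, 7.44, and 13.14 on the *ob/ob* arrays, and its log2 fold change of 2.65 (SE 1.48) became 0.89 without *ob/ob* 3. *Marco*, *Cd84*, and *Mpeg1* gave 0.25, 0.44, and -0.00, or 0.83, 1.06, and 1.31 without *ob/ob* 3. In the list of tissue resident macrophage genes, *Vsig4*, a complement receptor, was higher on all *ob/ob* arrays by 1.26 (SE 0.37, exact permutation p = 0.10, unadjusted limma p = 0.0131, adjusted p = 1.0), and by 0.97 without *ob/ob* 3. The estimates of *Folr2*, *F13a1*, *Gas6*, and *Stab1*, genes of the same resident cells, were 0.14, 0.96, -0.79, and -0.32, or -0.07, 0.59, -1.46, and -0.49 without *ob/ob* 3.

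**Figure D3:**
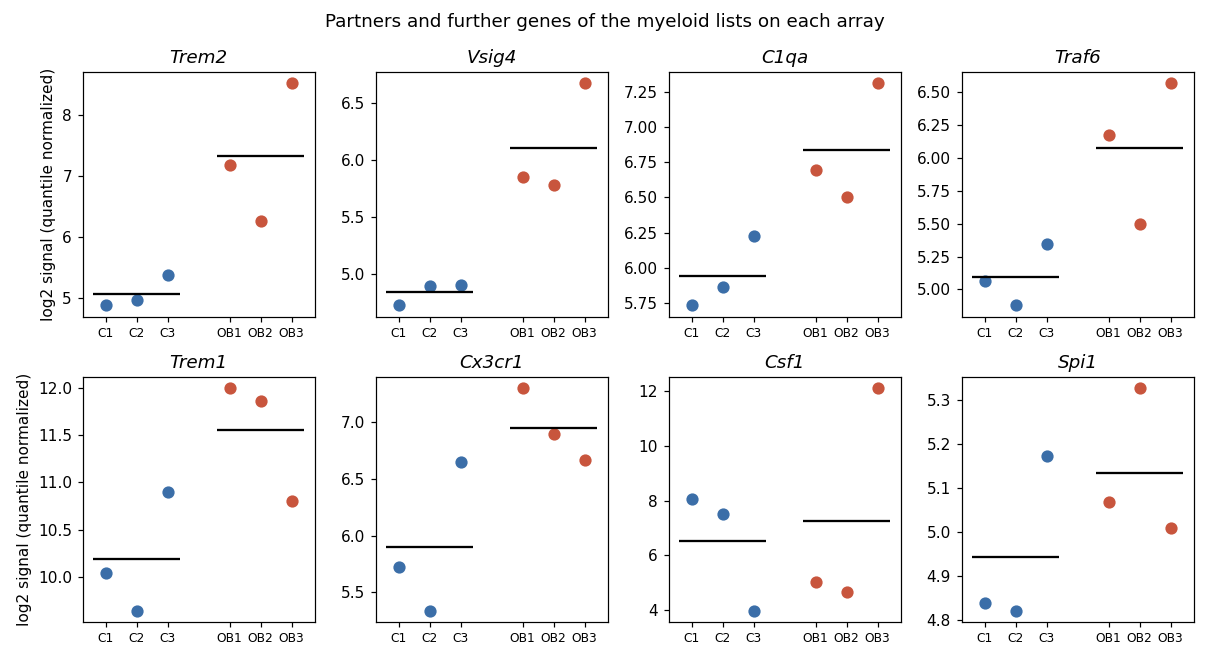
Log2 signal after quantile normalization (y axis, a different range in each panel) of 8 genes of the related lists on control 1 to 3 (blue) and *ob/ob* 1 to 3 (red), with group means as black lines. In *Trem2*, *Vsig4*, *C1qa*, *Traf6*, and *Cx3cr1* every red point lies above every blue one, narrowly in *Cx3cr1*. *Csf1* has its extremes on C3 and OB3.

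Marker genes of other cell types also differed between the arrays. *ob/ob* 3, on which 6 of 10 surface markers were highest, also had the highest summed linear signal of the skeletal muscle list, 84596 compared with 890.2 and 1085 on *ob/ob* 1 and 2 and 4123 to 42718 in the controls. The same array was highest for the erythrocyte list (32131, compared with 757.9 to 12540 elsewhere) and the fibroblast list (22121, compared with 1026 to 7930). Of the lipid-associated macrophage genes, 9 of 9 were highest on *ob/ob* 3, beside 30.2% of all genes, at a sum of 65249 compared with 2039 to 8652 elsewhere. The brightest of them on *ob/ob* 3 were *Lgals3* and *Lpl* (log2 signals 15.33 and 13.69), which lead this sum. The paper measured *Cd36*, also in this list, in brown adipocytes, so the list is not particular to macrophages in whole tissue. The summed neutrophil list, whose cells also carry *Itgam*, *Cd14*, and *Tyrobp*, ran from 9772 to 14301 in the controls and from 13052 to 14114 in the *ob/ob* samples. On control 1 this sum was led by *Csf3r* and *Elane* (log2 signals 12.34 and 11.87), and on *ob/ob* 3 by *Csf3r* and *S100a9* (12.79 and 11.94). Genes of this list differed in order, however. *S100a8*, a calcium-binding protein of neutrophils, read 10.69 on *ob/ob* 3 and 4.53 to 7.59 elsewhere, and its log2 fold change of 0.59 (SE 1.70) became -1.29 without that array. *Elane*, a neutrophil protease chosen after its values were seen, read 9.87 on *ob/ob* 3 and 11.87 to 12.86 elsewhere.

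The brightest probe of *Csf1r* and the probe of *Cd163* were highest on control 3, *ob/ob* 1, and *ob/ob* 2. A further *Csf1r* probe was highest on *ob/ob* 3. Control 3, *ob/ob* 1, and *ob/ob* 2 had the highest sums of the T and NK cell list. These were 6958, 7644, and 7904, compared with 1856 to 3644 on the other arrays. These sums were led by the brightest genes, *Cd4* and *Nkg7* (log2 signals 11.47 and 11.78 on *ob/ob* 2). In 4 of the 10 genes these were the 3 highest arrays (40%, beside 31.7% of all genes). Control 3, *ob/ob* 1, and *ob/ob* 2 also had low sums of the brown adipocyte list, 6488, 4645, and 4214, compared with 12478 to 91666. *Cd3e*, a T cell receptor chain, gave a log2 fold change of -0.85 (SE 0.51), and *Pecam1*, an endothelial adhesion protein, gave 0.05 (SE 0.86), or -0.33 and 0.95 without *ob/ob* 3. The part of these other cell types in the marker values was not tested.

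**Figure D4:**
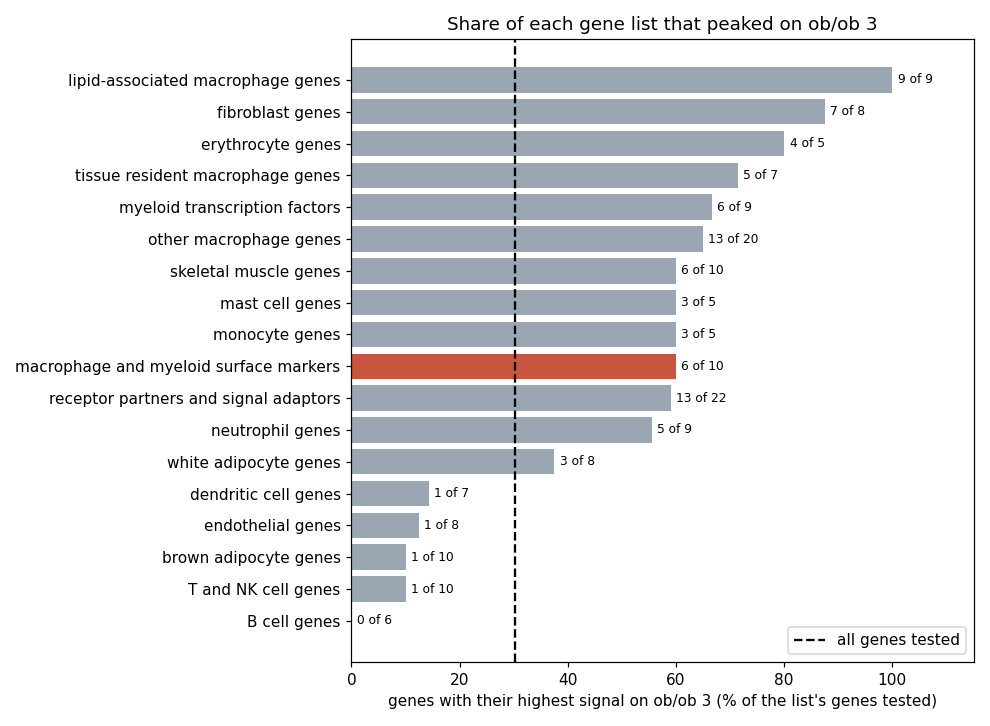
Percent of each list's tested genes with their highest quantile-normalized signal on *ob/ob* 3 (x axis), with the counts beside the bars and a dashed line at 30.2%, the share of all genes tested. The surface markers (red bar, 6 of 10) stand among the other myeloid lists and the skeletal muscle list, and the B cell, T and NK cell, brown adipocyte, endothelial, and dendritic cell lists lie below the line.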

How the data were processed

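Total RNA of 6 iBAT samples was labeled with Cy3 and hybridized to Agilent arrays, read with Agilent Feature Extraction (version 11.0.1.1 per the labels). The deposited scanner files give each spot's intensity, from which the authors' scanner software had subtracted background within the array but had applied no scaling between arrays, with flags for spots above background and for outliers. The authors' own log2 table, quantile normalized in GeneSpring, was an alternative.

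Groups and numbers came from the sample titles. Of 39429 probes, 104 with outlier flags on every spot of an array were left out. Spot intensities were log2 transformed, averaged for each probe, and quantile normalized. Probes with at least 50% of spots well above background on at least 3 of 6 arrays (35448) were fitted with limma 3.58.1 under R 4.3.3, with Benjamini-Hochberg adjustment. Probes were named by RefSeq accession through the GRCm38.p6 annotation, used for names and promoters (27174 of 28623 matched). The brightest probe stood for each of 19011 genes. No spot was saturated, and the number of arrays limits precision. Exact permutation tests were two-sided.

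The markers, the lists, and the rule for named genes were chosen with earlier results of these data known. The rule takes all markers, listed direct partners, genes of the 4 related lists at an unadjusted p under 0.05 or, without overlap, at least 2-fold apart, and up to 4 further genes per list by mean signal, with *Ucp1*, *Cd3e*, *S100a8*, and *Pecam1* as examples. *Lep*, *C1qb*, and *C1qc* were added after their values were seen. The lists of monocyte, dendritic cell, mast cell, B cell, and white adipocyte genes are given among the other observations. In the monocyte list, 1 gene is not reported here, and the list's values are without it.

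Other settings tried were scaling to the 75th percentile instead of quantiles, normexp background correction (offset 50, on median spot signals), the authors' values, no detection filter, detection on all 6 arrays, the positive and significant flag, the methods' t-test as an unpaired test per probe, limma with a trend and a robust prior, quality weights per array, a block for the replicate number or for the scan, each array left out, control 3 and *ob/ob* 3 left out, and the mean of a gene's probes. A single scan held control 1, control 3, and *ob/ob* 1, and each other array was scanned alone. The code was tested on simulated data.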

Additional observations from a re-analysis of the deposited data

How the results depend on the processing

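Of 189 recomputed fold changes of single markers, 156 kept their direction and their side of an unadjusted p under 0.05, and 23 turned. *Csf1r*, *Itgam*, and *Cd14* kept their direction under all 19 alternatives, of which only the mean of a gene's probes used other probes. Taken alone, a further probe of *Csf1r* (-0.32) and another of *Itgam* (0.28) had the opposite sign. The remaining further probe of each gene had the same sign (0.67 and -0.15). Array quality weights, whose estimation gave a warning and which called 94.1% of all genes, called 9 markers, at an adjusted p too, gave a median of -0.064 over the markers, and turned *Mrc1* to -1.31, *Cd163* to 0.64, *Tlr2* to -0.44, *Ptprc* to -0.15, and *Tyrobp* to -0.076. With the scan as a block, which sets *ob/ob* 1 alone against control 1 and 3, *Adgre1* gave 0.085, *Mrc1* -0.36, *Cd163* 0.063, and *Tlr2* -0.34. The mean of the probes gave 0.41 for *Adgre1*. The methods' t-test called 1 marker (*Cd14*), beside 4.32% of all genes, and normexp left 0 markers without overlap, beside 7.89% of all genes without overlap. The cause of these differences was not tested.

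Leaving out each array in turn, 0 to 2 markers had an unadjusted p under 0.05, 1 to 3 did not overlap, and the median ran from 0.04 to 0.48. The called markers were *Csf1r* and *Itgam* without control 3 and *Csf1r* without *ob/ob* 3, and 24.0% and 29.5% of all genes then did not overlap. The fold change ran from 0.78 to 1.69 for *Csf1r*, -2.01 to -0.82 for *Itgam*, -0.47 to 0.15 for *Adgre1*, -1.04 to 2.11 for *Mrc1*, -0.54 to 0.60 for *Cd163*, -0.25 to 0.48 for *Tlr2*, -0.048 to 0.78 for *Tlr4*, and -0.019 to 1.01 for *Tyrobp*. Without control 3 and *ob/ob* 3 together, which leaves 2 samples per group, 4 markers were called beside 54.9% of all genes, 6 did not overlap beside 74.7%. The called markers, *Csf1r* (2.23), *Itgam* (-1.56), *Mrc1* (-1.81), and *Cd163* (1.22), also passed an adjusted p under 0.05 in limma, while *Adgre1* gave 0.36, *Tlr2* -0.31, *Tlr4* -0.0049, and *Tyrobp* -0.074.

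The replicate numbers did not pair the samples (correlations of same-numbered deviations -0.781, -0.658, and -0.850), and with the replicate block 0 markers were called, beside 1.08% of all genes. Probes at an unadjusted p under 0.05 numbered 1245, compared with 451 under the 75th percentile, which shifted the median of all probes to -0.32 and gave the markers a median of 0.23, 359 under the replicate block, 148 with the scan as a block, 33222 with weights, 18434 without both arrays numbered 3, and 285 to 3484 with 1 array left out. At an adjusted p under 0.05, 0 probes passed in limma and in the methods' t-test, 1 in limma with trend and robust estimation, 33168 with weights, and 16259 without both arrays numbered 3. Detection on all 6 arrays left out *Mrc1*. *Mrc1*, not well above background on 2 arrays, had the widest confidence interval.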

Other observations

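Further lists of immune cells were read the same way. Monocyte genes had a median log2 fold change of 1.34 over 5 genes, or 0.64 without *ob/ob* 3. Of these, *Chil3*, a secreted lectin, gave 2.43 (exact permutation p = 0.10, unadjusted limma p = 0.048, adjusted p = 1.0), higher on 3 of 3 *ob/ob* arrays. *Lgals3*, a galectin of the lipid-associated macrophage list, was also higher on 3 of 3, by 4.13 (SE 1.12, exact permutation p = 0.10, unadjusted limma p = 0.00913), and by 2.86 without *ob/ob* 3. In that list 6 of 9 genes were above 0 with all arrays, and 3 of 9 without *ob/ob* 3. *Chil3* and *Lgals3*, like the genes that follow, were chosen after their values were seen.

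Of 6 B cell genes, *Ms4a1* was higher on all *ob/ob* arrays by 1.16, and of 10 T and NK cell genes *Gzma* was higher on all by 0.98. *Cd8a* (-0.91) and *Cd3e*, described above (-0.85), were lower on all. Of all genes, 3.78% were higher and 4.22% lower on every *ob/ob* array. The medians of the B cell and the T and NK cell lists were -0.02 and -0.03. Mast cell genes had a median of 0.83 over 5 genes, with 2 higher on all *ob/ob* arrays. Dendritic cell genes had a median of -0.15 over 7, with 1 lower on all. White adipocyte genes had a median of -0.26 over 8, with *Lep* higher (2.07) and *Retn*, an adipocyte hormone, lower on all *ob/ob* arrays (-1.98). Medians were 0.54 for neutrophil, 0.56 for lipid-associated macrophage, -2.20 for brown adipocyte, -1.08 for endothelial, -1.06 for skeletal muscle, -0.50 for fibroblast, and -0.37 for erythrocyte genes. Without *ob/ob* 3, they were 0.04, -0.21, -2.54, -1.43, -2.23, -1.87, and -1.12 in the same order, and 0.26 for B cell, 0.16 for T and NK cell, 0.43 for mast cell, -0.13 for dendritic cell, and -0.08 for white adipocyte genes. In limma, no gene of these lists had an adjusted p under 0.05.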
